A study of Arabidopsis thaliana with 9 samples.

Results

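The wild-type transcriptome described here is that of Col-0 embryos of *Arabidopsis thaliana* at the early heart stage. Its members were the libraries labelled as Col-0 wild type, which are 3 of the 9 libraries of the series. The study sequenced early heart embryos of 3 genotypes (Col-0, 35S::*FCA* and Col *FRI*) with 3 libraries each, to follow the floral repressor gene *FLC* in the embryo under an activator (*FRI*) and a repressor (*FCA*). Only Col-0 was analysed here, and no genotypes were compared. Col-0 is the reference accession, carries a loss-of-function allele of *FRIGIDA* and received no transgene. Its plants grew in long days without vernalization, and embryos were dissected from their seeds. Each library pooled 20 embryos and was made by Smart-seq2, a method for little input RNA that reverse transcribes and pre-amplifies whole transcripts, with Tn5 used to cut and tag the cDNA. Libraries were read as paired ends of 75 nt in 2 sequencing runs. A pool of whole embryos does not resolve cell types, and for every gene below, fewer cells that express it and less RNA per cell cannot be told apart.

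The heart stage follows the globular stage and is the stage at which the cotyledons grow out, so that the embryo takes on a bilateral shape. By then the protoderm, ground tissue and vascular precursors have been set apart, the founders of the shoot and root meristems are in place, and the cells divide rapidly. Embryos of oilseeds such as *Arabidopsis* also green early, and they begin to store oil and protein only later, in maturation. The regulators *LEC1*, *LEC2*, *FUS3* and *ABI3* act across embryogenesis and control that maturation program.

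Levels are given as nuclear TPM. The deposited TPM were summed per locus, the loci of both organelle genomes and the ribosomal locus AT2G01021 were left out, and the rest was rescaled to 1000000 per library. The files hold 41683 transcript entries of 33603 loci, of which 33323 nuclear loci were kept. Depth was 24659741, 23861864 and 20372634 estimated counts in replicates 1, 2 and 3. On a transcript of about 1000 nt in length, 3 counts stood for 0.126, 0.138 and 0.189 nuclear TPM, and levels below these were not measurable. Replicate 3 stood apart. The loci left out held 23.2, 26.4 and 39.0% of deposited TPM in replicates 1, 2 and 3, the order used for every series of values below. The ribosomal RNA that was kept took 6.53, 7.00 and 13.3% of nuclear TPM, and 137 nuclear loci whose sequence matches an organelle genome summed to 5346, 6730 and 14771 nuclear TPM. Protein-coding loci held 91.5, 91.3 and 84.3% of nuclear TPM. Across the 16514 loci with a mean of at least 1 nuclear TPM, Pearson's r between pairs of libraries was 0.969 to 0.981 on log2(nuclear TPM + 1), a description across loci that share their libraries, and 87.9 to 92.5% of loci lay within 1.5-fold of each other. The labels call the libraries biological replicates without saying how plants were pooled. Every SD below is over n = 3 and measures the spread between these libraries only.

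The labelled tissue was checked against marker genes. The embryo markers were *LEC1*, *L1L*, *LEC2*, *FUS3*, *WOX2*, *WOX9*, *STM*, *CUC2*, *PLT1*, *PLT2*, *ATML1*, *PDF2*, *MP*, *SCR* and *SHR*. Each of them was above 1 nuclear TPM in every library, and their means ran from *LEC1* (216, 208 and 233) down to *SHR*, a regulator of ground tissue (12.6, 10.1 and 6.09). Of 10 endosperm markers, 2 had a mean of at least 1 nuclear TPM, *ZOU* (0.557, 1.49 and 3.93) and *PHE1* (0.694, 0.600 and 2.08), *IKU2* had 0 counts in every library, and the sum of the list was 2.60, 3.14 and 8.59. Replicate 3 was the highest of the libraries in that sum. Of 14 seed coat markers, 7 had a mean of at least 1 and the list summed to 50.6, 57.1 and 66.3, of which the MADS-box genes *SHP1* (28.3, 34.7 and 34.0) and *STK* (10.6, 6.71 and 11.3) took the most. *BAN*, the anthocyanidin reductase of the seed coat, stood at 1.50, 3.38 and 8.53, *MUM4* and *TTG2* had means of 4.43 and 3.77, and the others had means of at most 1.09, the value of *TT10*. Of all protein-coding loci 59.1% had a mean of at least 1 nuclear TPM, against 20% of the endosperm and 50% of the seed coat markers. The seed coat count is near the share of all protein-coding loci, so by itself it says little about seed coat RNA. What endosperm or seed coat RNA added to any level below was not tested.

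At least 1 nuclear TPM was reached by the mean of 16514 loci, or 49.6% of all nuclear loci, and by every library for 15511 of them. Among protein-coding loci the share was 59.1%, against which the counts of the lists below can be read. There were 7880 loci from 10, 1327 from 100 and 175 from 1000 nuclear TPM. Expression was concentrated in few genes. The 10 most abundant loci held 13.7 ± 3.48% of nuclear TPM (SD, n = 3), the 100 most abundant 35.0 ± 2.08% and the 1000 most abundant 72.6 ± 0.467%. Counting from the top, 246, 255 and 224 loci made up the first 500000 nuclear TPM. The share of the top 10 was 11.9, 11.6 and 17.7% and was thus highest in replicate 3, the library with the most ribosomal RNA. Without replicate 3 it was 11.7%.

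The most abundant transcripts were those of the ribosome. Among the 30 loci of highest mean level, 25 encode ribosomal proteins, 3 ribosomal RNA and 2 other proteins, and among the first 100 there were 75 ribosomal proteins and 6 histones. The 18S rRNA locus AT3G41768 (chromosome 3, 14197677 to 14199484 in TAIR10.1) led with 36581, 42705 and 88736 nuclear TPM. Its level in replicate 3 was more than the level in either of the others, and without that library its mean was 39643. The 2 loci that follow as rRNA, AT2G01020 and AT3G41979, had the same values, 14338, 13635 and 22050. Their sequences are printed once, because the copies differ by 0 of 164 bases and the estimated counts of one are those of the other in every library. The annotation names AT2G01020 a 5S rRNA, while its bases are those of the 5.8S rRNA AT3G41979, at chr3:14199753-14199916 (TAIR10.1, RefSeq, plus strand).
AT3G41979: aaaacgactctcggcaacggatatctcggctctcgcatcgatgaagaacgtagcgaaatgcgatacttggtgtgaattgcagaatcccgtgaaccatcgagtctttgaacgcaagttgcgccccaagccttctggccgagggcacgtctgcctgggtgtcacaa
Any level of these copies is one measurement divided over both, and protocols that prime on poly(A) capture rRNA only in part.

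**Figure D1:**
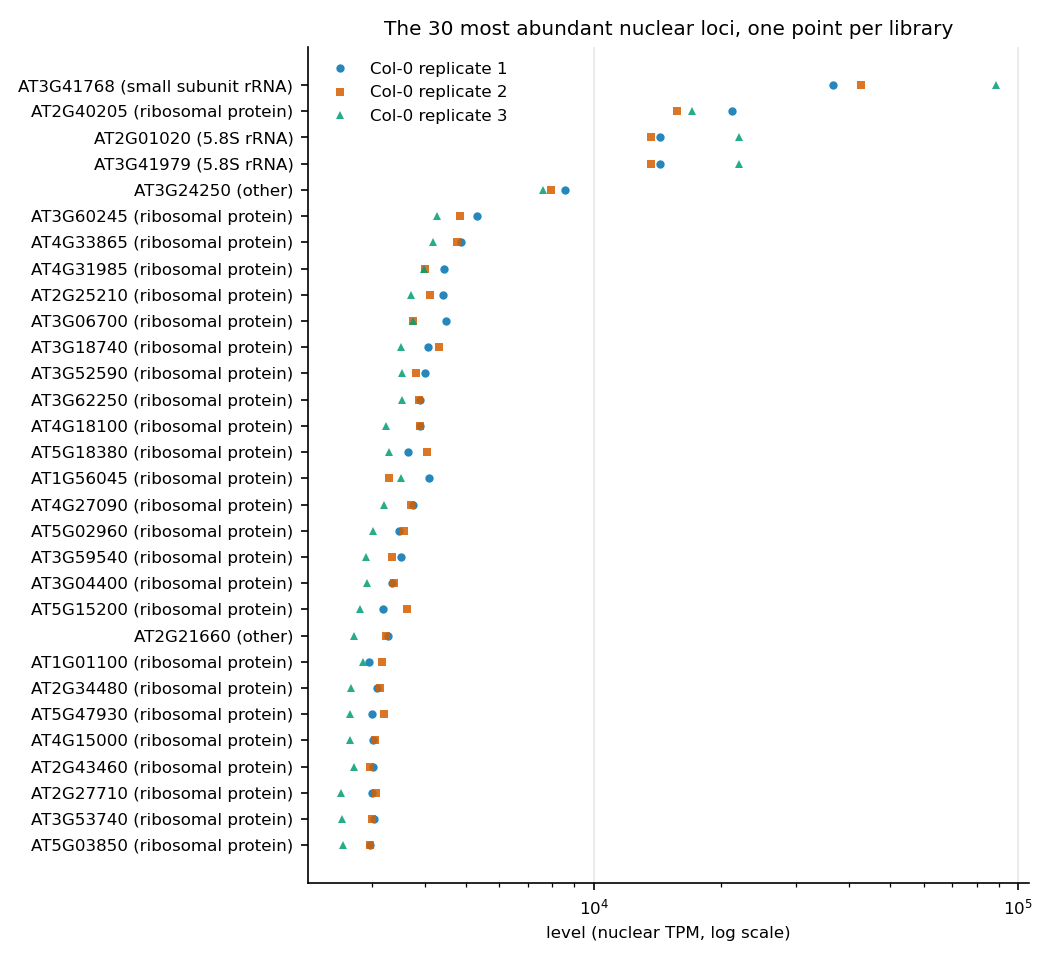
Nuclear TPM (log axis) of the 30 loci of highest mean level, one row per locus with its class, and one point per Col-0 library. Ribosomal RNA is highest in replicate 3, while AT2G40205, an L41 ribosomal protein, stands at 21185, 15696 and 17036 and the other ribosomal proteins lie between 2537 and 5324.

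Ribosomal proteins together took 35.7, 34.8 and 30.4% of nuclear TPM, a mean of 33.7 ± 2.82% (SD, n = 3). The list holds 370 loci without those whose product names an organelle, although a family name does not always give the compartment, and 343 of them had a mean of at least 1 nuclear TPM, with a median of 454.6 against 0.932 over all nuclear loci. Of the 175 loci from 1000 nuclear TPM, 127 were ribosomal proteins. A narrower list of 197 loci held 26.7 ± 2.19% with a median of 1008. It joins the loci that the annotation assigns to the cytosolic ribosome with a few listed by hand, such as *UBQ1* and *UBQ5*. The list was lowest in replicate 3, the library with the most rRNA.

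The protein-coding locus of highest level was AT2G40205, which encodes L41, the smallest protein of the large subunit. It stood at 21185, 15696 and 17036 nuclear TPM, a mean of 17972 ± 2862 (SD, n = 3). This rank rests on its length. The index entry has 116 nt and an effective length of 35.0, so that 19937, 13817 and 10686 estimated counts gave the second highest TPM of the table but only rank 199 by counts scaled to depth. AT3G08520, a copy with an entry of 78 nt and an effective length of 15.7, reached 2664, 1926 and 2322 nuclear TPM from 1116, 775 and 645 counts, and its rank went from 52 by TPM to 3567 by counts. The family has 5 loci, all with a coding sequence of 78 nt. These sequences are shown because reads of 75 nt can be assigned to one copy only where the copies differ. They are from TAIR10.1 (RefSeq), 5′ to 3′ with introns removed, and capitals mark bases that differ from AT2G40205 (chr2:16792355-16792531, minus strand). AT1G56045 (chr1:20962686-20963268, plus strand) differs at 8 bases, AT3G11120 (chr3:3481128-3481304, plus strand) at 5, AT3G08520 (chr3:2586032-2586206, plus strand) at 4 and AT3G56020 (chr3:20790826-20791043, minus strand) at 3.
AT2G40205: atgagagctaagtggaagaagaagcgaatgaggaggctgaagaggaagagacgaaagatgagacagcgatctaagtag
AT1G56045: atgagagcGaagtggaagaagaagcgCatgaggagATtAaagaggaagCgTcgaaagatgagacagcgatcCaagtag
AT3G11120: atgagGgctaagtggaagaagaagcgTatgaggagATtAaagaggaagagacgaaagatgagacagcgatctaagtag
AT3G08520: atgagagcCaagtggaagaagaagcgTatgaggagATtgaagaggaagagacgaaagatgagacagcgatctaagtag
AT3G56020: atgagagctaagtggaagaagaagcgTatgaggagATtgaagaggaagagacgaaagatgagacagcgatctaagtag
The other members stood at 4093, 3293 and 3513 (AT1G56045), 3309, 2572 and 2536 (AT3G11120), and 2511, 1934 and 1933 (AT3G56020). Replicate 1 was the highest library for all 5 loci. How the counts were divided among these near-identical copies was the work of the authors' estimate and was not tested.

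Below L41, ribosomal proteins followed each other in small steps. AT3G60245, of the zinc-binding ribosomal protein family, had 5324, 4849 and 4288 nuclear TPM. AT4G33865 (S29e type) had 4881, 4754 and 4178. Near it were AT4G31985 with 4432, 4012 and 3992 and AT2G25210 with 4408, 4112 and 3720, which belong to the L39 family. The differences between these neighbours were of the size of their spread, whose coefficients of variation (CV, the SD as a percentage of the mean) were 5.99 to 10.8%. The genes of ubiquitin joined to a ribosomal protein, *UBQ1* (4005, 3819 and 3542) and *UBQ5* (3899, 3875 and 3530), ranked 12 and 13. Most top ribosomal proteins were lowest in replicate 3.

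The most abundant locus outside the ribosome was AT3G24250, annotated as a glycine-rich protein, with 8560, 7946 and 7612 nuclear TPM (8039 ± 481, SD, n = 3). This level does not rest on a short entry, since it also ranked 2 by counts scaled to depth, from 134992, 114437 and 79865 estimated counts. The locus lies on chromosome 3 from 8786689 to 8787391. Of its 138 codons, 38 (27.5%) are GGN, which codes for glycine, and its last 210 coding bases, codons of which 32 of 70 are GGN, are shown because they give the repeat for which it is named (chr3:8786968-8787177, TAIR10.1, RefSeq, plus strand, GGN codons in capitals).
AT3G24250: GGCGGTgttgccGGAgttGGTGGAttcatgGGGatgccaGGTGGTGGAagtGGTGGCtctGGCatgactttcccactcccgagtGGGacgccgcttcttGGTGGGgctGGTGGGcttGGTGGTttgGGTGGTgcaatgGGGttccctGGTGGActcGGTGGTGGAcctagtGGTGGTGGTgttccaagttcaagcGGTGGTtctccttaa
No other role is annotated for this gene. *GRP7* (AT2G21660), an RNA-binding protein of the circadian system that also carries a glycine-rich end, followed with 3284, 3248 and 2721 and ranked 7 by counts scaled to depth.

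Other abundant coding genes, apart from histones and photosynthesis genes, were of several kinds. AT2G34700, of the pollen Ole e 1 and extensin family, stood at 2717, 2666 and 2761 (CV 1.75%). The elongation factor 1-alpha gene AT5G60390 had 2628, 3172 and 2158 nuclear TPM, and *FBR12*, an initiation factor 5A, had 2355, 2539 and 2242. AT5G38170 (2323, 2055 and 2555) and AT4G30880 (2459, 2055 and 2267), both of the lipid-transfer and inhibitor family, were at the same height. By counts scaled to depth AT5G38170 ranked 160 and AT4G30880 ranked 165, and their index entries have 444 and 445 nt. *NDPK1*, a nucleoside diphosphate kinase, had a mean of 1989 ± 185, the cyclophilin *ROC3* 1731 ± 200.2 and the arabinogalactan protein *AGP15* 1581 ± 231. The acyl-CoA-binding protein *ACBP6* was among the evenest of them, with a CV of 1.29%.

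Functional lists were ordered by the share of nuclear TPM that their genes held, and the order down to tubulins and actins was the same in each library. Behind the ribosomal proteins came histones with 3.46 ± 0.157%, nuclear genes of photosynthesis with 1.38 ± 0.0501% and all transcription factors with 1.26 ± 0.0297% (SD, n = 3). Translation factors had 0.770 ± 0.104%, plastid fatty acid synthesis 0.497 ± 0.0229%, tubulins and actins 0.317 ± 0.0312% and cytosolic glycolysis 0.248 ± 0.0322%. Protoderm genes took 0.214 ± 0.0151% and genes of the cell cycle and DNA replication 0.178 ± 0.00629%. These are shares of lists of unequal size, and the plot of list shares shows each library.

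**Figure D2:**
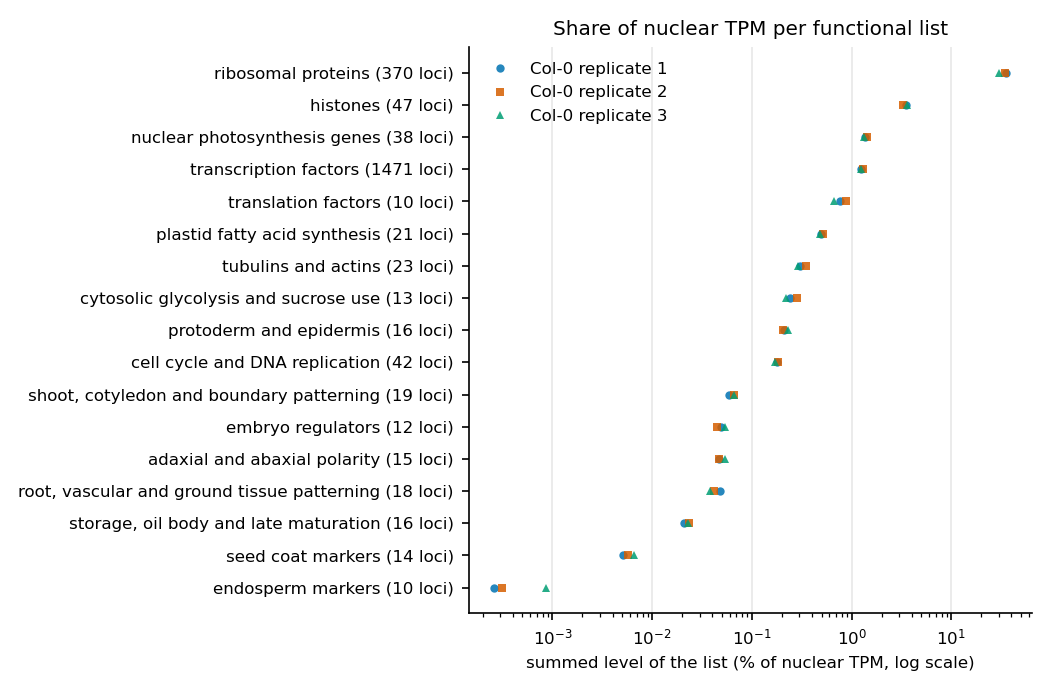
Summed level of each functional list as a percentage of nuclear TPM (log axis), with the number of loci in brackets and one point per Col-0 library. Ribosomal proteins hold 30.4 to 35.7%, histones 3.28 to 3.57% and the endosperm markers at most 0.000859%, which is the value of replicate 3.

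Histones package newly made DNA, and most of their genes are transcribed in S phase. Of 47 histone loci, 41 had a mean of at least 1 nuclear TPM and 16 a mean of at least 1000, with a median of 572. The H4 gene AT5G59690 led with 2159, 2142 and 2333 nuclear TPM. The H3 genes AT1G09200 (2125, 1955 and 2184) and AT5G65360 (1865, 1887 and 1963) and the H2B gene *HTB4* (1971, 1813 and 2117) were near it. These values overlap between neighbours, and copies of one histone share most of their coding bases, so a locus value is uncertain where the sum is not. *HTR12*, the H3 variant of centromeres, stood at 67.0, 63.0 and 61.8. *MGH3*, the H3 of pollen sperm cells, had 0, 0.934 and 0, and *HTA4* had 0 counts in every library.

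Genes of the cell cycle were measured in nearly full number. Of 42 such loci 41 had a mean of at least 1 nuclear TPM, with a median of 23.5 and a median CV of 8.13%. *TSO2*, a small subunit of ribonucleotide reductase, had 196, 224 and 191, and the clamp genes *PCNA1* (186, 206 and 178) and *PCNA2* (155, 172 and 161) of DNA replication were near it. The D-type cyclin *CYCD3;2*, which drives entry into the cycle, stood at 193, 215 and 175. *KRP2*, an inhibitor of cyclin-dependent kinases, was the only member under 1, with 0.472, 0.519 and 0.0646.

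Upstream bases of protein-coding loci, with all ribosomal protein and histone genes whatever their level, were searched for 3 short sequences. These are known from promoters of growing plant cells. The sequences were the telo-box AAACCCTA, the site II element TGGGCC and the histone octamer CGCGGATC, each on both strands of the 250 bases before the annotated start. Different motifs can overlap each other by 1 base at most. The telo-box was found in 65 of 370 ribosomal protein windows (17.6%) and in 4.44% of all 26710 protein-coding windows. Site II elements were in 169 of them (45.7%, against 13.9% of all), and both together were in 36 (9.73%, against 1.01% of all). Loci from 100 nuclear TPM outside the ribosomal protein and histone lists, 987 windows, held the telo-box in 4.36% and the site II element in 27.3%. The octamer was in 9 of 47 histone windows (19.1%) and in 37 of all windows (0.139%). Windows of the 38 photosynthesis genes held 0 telo-boxes and 0 octamers, but they are too few to tell this from the shares of all windows. The site II element was in 6 of these 38 (15.8%) and in 16 of the 47 histone windows (34.0%).

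Windows of 80 bases are printed for the 4 ribosomal protein genes of highest level that hold both the telo-box and the site II element, with both motifs in capitals. They are AT2G40205 (L41, chr2:16792623-16792702), AT4G27090 (L14, chr4:13595281-13595360), AT3G59540 (L38, chr3:21996841-21996920) and AT5G15200 (S4, chr5:4936430-4936509), all on the minus strand and written 5′ to 3′ toward the gene (TAIR10.1, RefSeq).
AT2G40205: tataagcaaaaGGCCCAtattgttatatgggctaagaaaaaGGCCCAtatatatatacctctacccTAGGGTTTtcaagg
AT4G27090: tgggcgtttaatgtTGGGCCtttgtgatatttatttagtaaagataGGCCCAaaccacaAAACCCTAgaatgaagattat
AT3G59540: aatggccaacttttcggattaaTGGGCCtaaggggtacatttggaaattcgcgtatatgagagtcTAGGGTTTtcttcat
AT5G15200: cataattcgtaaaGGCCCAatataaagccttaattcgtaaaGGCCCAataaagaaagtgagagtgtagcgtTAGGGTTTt
Of these, AT4G27090 stood at 3746, 3718 and 3214 nuclear TPM, AT3G59540 at 3512, 3343 and 2907 and AT5G15200 at 3193, 3632 and 2822. For the histones, the 3 genes of highest level whose windows hold the octamer (capitals) are the H4 gene AT5G59690 (chr5:24051366-24051445, plus strand) and the H3 genes AT1G09200 (chr1:2972335-2972414, minus strand) and AT5G65360 (chr5:26120665-26120744, minus strand).
AT5G59690: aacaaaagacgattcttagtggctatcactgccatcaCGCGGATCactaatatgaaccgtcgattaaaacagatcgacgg
AT1G09200: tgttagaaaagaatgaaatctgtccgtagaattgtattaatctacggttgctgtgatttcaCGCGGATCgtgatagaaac
AT5G65360: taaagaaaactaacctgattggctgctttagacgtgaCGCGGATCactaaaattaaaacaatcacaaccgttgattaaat
A match is a description of these letters and not evidence of a bound factor.

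Nuclear genes of photosynthesis were measured in nearly full number. Of 38 loci of photosynthesis 36 had a mean of at least 1 nuclear TPM, with a median of 263 and a median CV of 6.22%. *RBCS1A*, a small subunit of Rubisco, had 1999, 1963 and 1907, and *CAB1*, a chlorophyll-binding antenna protein, had 1564, 1837 and 1439. The photosystem II genes *PSBR* and *PSBX* followed with means of 973 ± 17.5 and 922 ± 44.5. Members of one family were unequal. *RBCS3B* stood at 24.8, 26.1 and 30.7, while *RBCS1B* and *RBCS2B* had means of 0.889 and 0.654. These small subunit genes are close relatives, and reads shared between them could be assigned to the wrong copy.

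Fatty acid synthesis in plastids, which supplies membranes and later seed oil, had every one of its 21 genes above 10 nuclear TPM. The acyl carrier proteins led: *ACP1* had 993, 951 and 1005, *ACP2* 831, 919 and 870, *ACP3* 683, 721 and 691 and *ACP4* 423, 448 and 361. The lowest was the thioesterase gene *FATB* with 17.6, 15.9 and 18.0. Oil body and storage genes were lower. Of 16 genes of storage and late maturation 5 had a mean of at least 1 nuclear TPM, namely the oleosins *OLEO2* (137, 142 and 151), *OLEO4* (57.4, 54.3 and 58.8) and *OLEO1* (7.16, 14.4 and 16.7), the 2S albumin *SESA1* (5.39, 16.0 and 1.43) and the bZIP gene *ABI5* (1.29, 1.47 and 0.623). The 12S globulin *CRA1* stood at 0.387, 0.396 and 0.396, and *CRU2* had a mean of 0.0122. The oleosins, which coat oil bodies, were thus measured at this stage, while the globulins had means under 1 nuclear TPM. *SESA1* was highest in replicate 2, as were *SESA5*, *SESA4* and *SESA2*, and its mean rests on that library.

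Glycolytic enzymes and the cytoskeleton made up the other common functions. The glyceraldehyde-3-phosphate dehydrogenases *GAPC2* (579, 638 and 537) and *GAPC1* (461, 573 and 411), the aldolase *FBA8* (402, 475 and 346) and the enolase *LOS2* (347, 411 and 302) were each highest in replicate 2. Sucrose synthases, which cleave imported sucrose, had means under 1, with *SUS1* at 0.429, *SUS2* at 0.365, *SUS3* at 0.298 and *SUS4* at 0 counts in every library. Among the cytoskeletal genes *TUA4* had 458, 528 and 436, *ACT7* 434, 530 and 443, *TUB3* 351, 388 and 361 and *TUB2* 297, 330 and 308. The pollen actins *ACT12* and *ACT4* had means of 0.261 and 0.247.

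Of 1471 loci named as transcription factors by their product or symbol, 699 (47.5%) had a mean of at least 1 nuclear TPM, less than the 59.1% of all protein-coding loci, 299 of at least 10 and 18 of at least 100. Their median was 0.728, and 206 of them had 0 counts in every library. The top rank depends on the list. A list from annotation notes is led by *BTF3* (1230, 1212 and 1021), named here after its values were seen. The list by product, built from the names of DNA-binding families, does not hold *BTF3*. Its place among transcription factors thus rests on the annotation note alone. In the list by product the 2 most abundant were zinc finger proteins for which the annotation used here gives no symbol, AT5G16470 (422, 418 and 410) and AT3G02790 (393, 339 and 371). After them came *NF-YC2* (258, 265 and 267), a subunit of the trimeric CCAAT-binding factor NF-Y, the YABBY gene *FIL* (248, 265 and 263), the GATA factor AT4G16141 (276, 239 and 199) and *LEC1* (216, 208 and 233), itself an NF-YB type subunit. The values of *NF-YC2* and *FIL* overlapped, and *LEC1* was below both in every library.

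Ranks 7 to 20 held several kinds of factor. The B3 genes AT4G01580 (215, 201 and 202), AT1G49475 (182, 164 and 197) and AT3G18960 (163, 131 and 153) stood close together, with the zinc finger homeodomain gene *HB25* (157, 194 and 163) among them. The C2H2 gene AT2G36930 had a mean of 122 ± 14.4, the MYB-like *MEE3* 117 ± 11.0, *GATA17* 117 ± 20.0 and the bHLH gene *ILR3* 112 ± 8.13. *AGL15*, *NF-YC13*, *ICE1* and *AGL87* lay between 86.0 and 113. The remaining 2 of the 20 were not even between libraries. The AP2 gene AT1G22190 had 87.0, 236 and 33.9 and the Dof gene AT5G66940 had 81.1, 182 and 65.1, both highest in replicate 2, so their place rests on that library.

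Families differed in how many members were expressed. From 1 nuclear TPM there were 29 of 35 NF-Y subunits (median 22.0), 8 of 9 GRF genes of organ growth (median 22.9), 28 of 36 GATA factors (median 6.71) and 67 of 105 homeobox genes (median 3.36). Of 66 bZIP genes 42 passed, of 130 bHLH genes 63 and of 101 AP2/ERF genes 44. The shares were lower in 41 of 100 B3 genes, 36 of 94 C2H2 genes and 64 of 175 MYB genes, and lowest in 21 of 71 WRKY genes, 30 of 104 NAC genes and 27 of 118 MADS genes. The last 3 families had medians of 0.242, 0.0544 and 0.0733. The MADS gene *FLC*, which the study is about and which was named here after its values were seen, had 42.2, 47.5 and 47.8 nuclear TPM. This is the sum of 8 index entries, and it placed *FLC* at rank 53 among transcription factors. For Col-0 early heart embryos the paper reports about as many poly(A) reads at proximal as at distal *FLC* sites. How the sum divides between short and full-length transcripts was not tested. The level and rank of *FLC* therefore cannot be read as those of its full-length mRNA. Smart-seq2 does not mark strand, so reads of a gene and of its antisense partner cannot be told apart. For *FLC*, the paper states that it could assign no reads without ambiguity to the antisense transcripts *COOLAIR*.

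Regulators of embryo identity were led by *LEC1*. *AGL15*, a MADS factor that promotes embryo development, stood at 119, 91.3 and 129. *WRI1*, which activates genes of glycolysis and fatty acid synthesis, had 39.7, 48.7 and 53.0, and *BBM*, an AP2 factor of embryo identity, 32.9, 23.5 and 20.9. The B3 factors of maturation were *FUS3* with 24.8, 21.4 and 30.4, *ABI3* with 21.9, 21.6 and 23.6, both in the range of *BBM*, and *LEC2* with 9.10, 9.31 and 11.9. *LEC2* was below *FUS3* and *ABI3* in every library, while *FUS3* and *ABI3* overlapped. *L1L*, the closest relative of *LEC1*, had 11.8, 13.0 and 20.1. The repressors *VAL1* (7.52, 7.10 and 8.19) and *VAL2* (4.41, 4.05 and 4.29), which close the maturation program after germination, were also measured. *RKD4*, which acts in the zygote, had 0, 0.0622 and 0.

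Of the 19 shoot, cotyledon and boundary genes 17 had a mean of at least 1 nuclear TPM. *AN3*, a coactivator of organ growth, had 356, 388 and 338 nuclear TPM, *AS1*, a MYB factor of lateral organs, 58.1, 59.8 and 81.0 and *ANT*, an AP2 growth factor, 35.4, 40.2 and 53.7. Below them lay the boundary gene *KNAT6* (21.2, 22.7 and 24.8), the margin gene *WOX3* (14.7, 16.9 and 21.7) and the *CUC* genes of the cotyledon boundary, with means of 13.1 ± 4.07 for *CUC1*, 10.7 ± 4.83 for *CUC2* and 5.49 ± 1.03 for *CUC3*. *STM* and *CUC2* were highest in replicate 3, and their levels in replicates 1 and 2 were close to each other. *WUS*, which marks few cells of the shoot stem cell niche, had 0.728, 1.06 and 0.996. *DRN* stood at 0.326, 0.108 and 0.0491, well below its paralog *DRNL* (18.6, 32.7 and 23.8).

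In the polarity list, the leading genes of the lower, abaxial organ side stood above the HD-ZIP III genes of the upper, adaxial side. The contrast holds for these genes only. *AS1* (58.1, 59.8 and 81.0) and its partner *AS2* (5.49, 9.44 and 12.6) were in the shoot list and are not part of it. *AS1* was above *YAB5* in every library, and *AS2* was below it. The abaxial YABBY genes *FIL*, *YAB5* (47.8, 49.3 and 65.1) and *YAB3* (39.8, 36.0 and 45.4) led, followed by *KAN2* (32.6, 28.6 and 36.6), *KAN1* (19.0, 15.4 and 22.5) and the auxin response factor *ETT* (15.7, 14.5 and 19.6). The HD-ZIP III genes of the adaxial side were lower, *PHB* with 10.9, 9.13 and 17.1, *PHV* with 8.97, 6.64 and 16.5 and *REV* with 3.94, 5.55 and 6.65. Their relatives of the vasculature, *CNA* and *HB8*, had means of 2.16 and 1.19. The list holds 15 genes and each had a mean of at least 1. In each library *KAN2* was above *PHB*, *PHV* and *REV*.

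**Figure D3:**
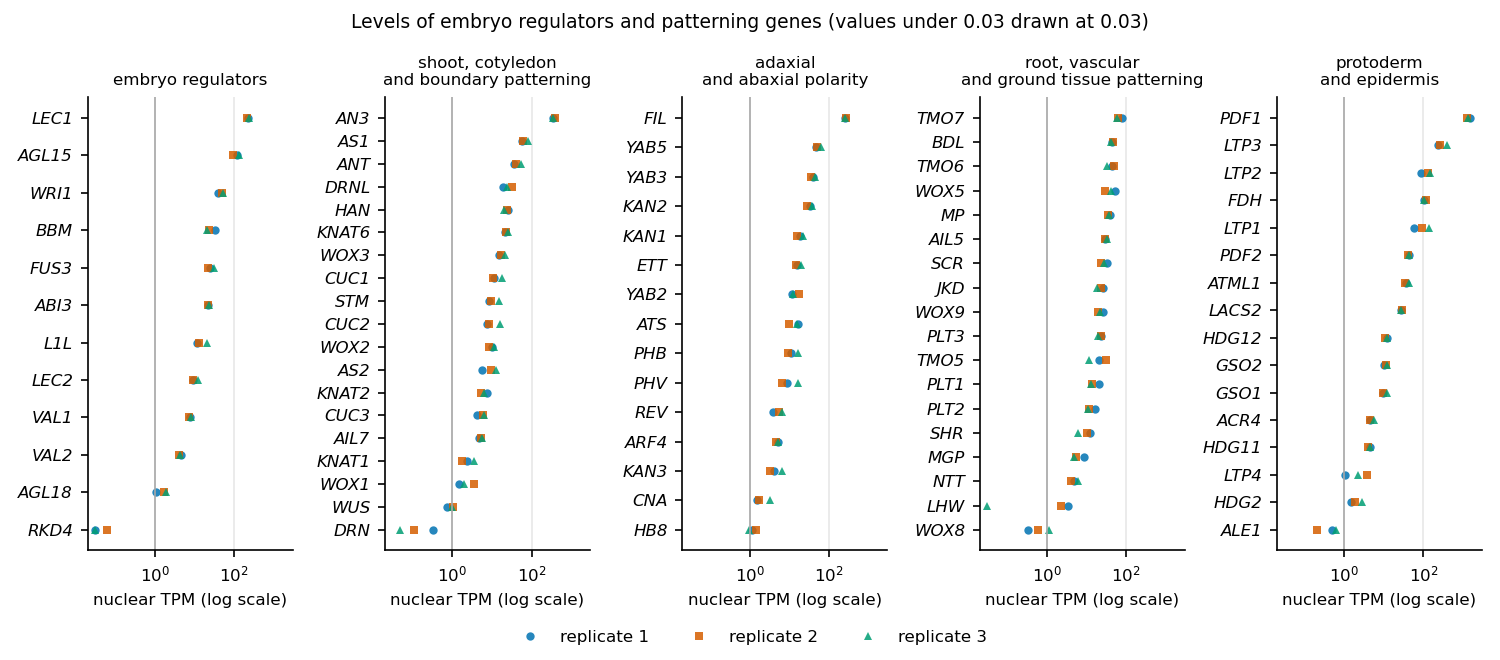
Nuclear TPM (log axis, values under 0.03 drawn at 0.03) of every gene in 5 lists of embryo regulators and patterning genes, with one point per Col-0 library and a grey line at 1 nuclear TPM. Levels run from *PDF1* at 1284 to 1454 down to *RKD4* and *DRN*, and *LHW* falls to the floor in replicate 3 alone.

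Of the 18 root pole, ground tissue and vascular genes 17 had a mean of at least 1 nuclear TPM. *TMO7*, a small bHLH target of auxin response, had 79.4, 61.3 and 58.7, *BDL*, the repressor of the auxin response factor *MP*, 44.5, 46.1 and 42.1 and *MP* itself 39.6, 34.4 and 36.9. *WOX5*, which marks the quiescent centre, stood at 50.8, 29.8 and 40.7, while *WUS* at the shoot pole had a mean of 0.927. The ground tissue regulators were ordered as *SCR* (32.9, 22.6 and 27.3), *JKD* (26.4, 22.6 and 18.7) and *SHR* (12.6, 10.1 and 6.09). The root stem cell factors *PLT3*, *PLT1* and *PLT2* had means of 22.2 ± 1.96, 15.4 ± 4.05 and 12.8 ± 3.08. *TMO5* (20.4, 31.2 and 11.6) and *LHW* (3.38, 2.24 and 0.00055), whose proteins act as a pair in vascular divisions, were uneven between libraries. *LHW* had 232 and 139 estimated counts in replicates 1 and 2 and 0.0257 in replicate 3. Of the list, *WOX8* of the suspensor alone had a mean under 1 (0.696).

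The protoderm list held the gene of highest level among the patterning lists. *PDF1*, a cell wall protein of the outer layer, had 1454, 1284 and 1364 nuclear TPM, at rank 119 of all loci. The lipid transfer proteins *LTP3* (233, 254 and 395), *LTP2* (85.2, 132 and 145) and *LTP1* (57.5, 92.6 and 136) were highest in replicate 3 and lowest in replicate 1. The cuticle enzyme *FDH* had 101, 116 and 105 and *LACS2* 27.0, 29.4 and 27.2. Their regulators *PDF2* (41.9, 40.6 and 44.2) and *ATML1* (36.1, 34.5 and 43.2), a pair of homeodomain factors that specify epidermis, overlapped. The receptor kinases *GSO1* and *GSO2*, through which the embryo senses its cuticle, had means of 10.4 ± 1.46 and 11.0 ± 0.970, and *ALE1*, a protease of the surrounding endosperm, 0.448 ± 0.218.

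Isoforms were compared within loci by their share of the locus TPM. The index holds 5886 nuclear loci with more than 1 model, of which 4430 had at least 50 estimated counts in each library. The same model led in all libraries at 3957 of these (89.3%), and at 2525 (57.0%) it held at least 80% of the locus in every library. The model numbered 1 led at 2943 loci and another model at 1014 (22.9%), while at 473 (10.7%) the lead differed between libraries. A lead by another model left the coding exons as they were at part of the loci: at 379 of 990 such loci with both models in TAIR10.1 the coding exons were the same as those of model 1. Only 14406 of 38798 index models have the same spliced length in TAIR10.1 as in the index, so positions of exons are those of TAIR10.1 and not of the authors' models.

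Of the 10 most abundant loci led by a model other than 1, AT3G53740, AT5G45775 and AT3G06680 had a lead whose coding exons differ from those of model 1. AT3G53740, of the L36e family, was taken by model 2 at 97.8, 97.8 and 98.3% of locus TPM, while model 1 had at most 0.0650%. The coding sequence of model 2 has 339 nt and that of model 1 has 312, and the 27 bases that model 1 lacks are in capitals among coding bases 166 to 252 (chr3:19914118-19914204, minus strand, TAIR10.1, RefSeq).
AT3G53740.2: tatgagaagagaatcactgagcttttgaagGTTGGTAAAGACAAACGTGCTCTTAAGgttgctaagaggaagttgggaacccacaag
AT5G45775, of the L5P family, was led by model 2 with 99.9, 99.9 and 99.7%. Its coding sequence has 549 nt against 519 in model 1, and the first 60 coding bases are shown with the 30 that model 1 lacks in capitals, the start codon included (chr5:18566348-18566496, minus strand, intron removed).
AT5G45775.2: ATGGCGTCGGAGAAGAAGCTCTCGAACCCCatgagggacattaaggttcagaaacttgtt
At both loci the model that holds these bases took nearly all of the locus in each library.

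**Figure D4:**
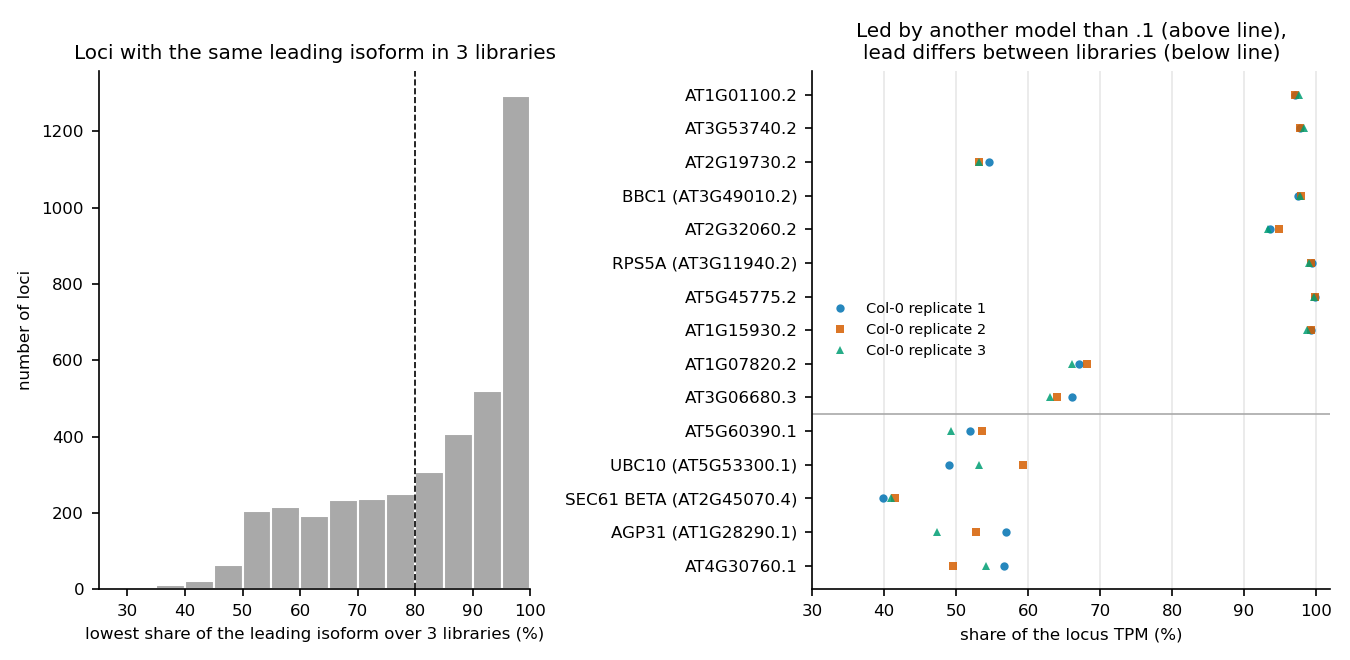
Left, number of loci by the lowest share that their leading isoform reaches in any of the 3 libraries, for loci with the same lead, with a dashed line at 80%. Right, share of locus TPM per Col-0 library for the 10 most abundant loci led by a model other than 1 and for 5 loci whose lead differs; AT3G53740.2 lies at 97.8 to 98.3% and AGP31.1 spreads from 47.3 to 56.9%.

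The other leads among these 10 kept the coding exons of model 1. Model 2 of AT1G01100, an acidic protein of the ribosomal stalk, held 97.1, 97.2 and 97.7%, model 2 of *BBC1* (L13) 97.5, 97.9 and 97.8% and model 2 of *RPS5A*, whose promoter is used to drive genes in dividing cells, 99.4, 99.3 and 99.0%. Of the most abundant loci led by model 1, AT3G06700 had 97.2, 96.8 and 97.2% and *emb2171* 74.6, 77.2 and 75.8%. The lead was the same but stayed at or under 55% in every library at 52 loci. At AT2G19730 (L28e) model 2 had 54.6, 53.2 and 53.2% and model 1 44.7, 45.9 and 46.1%, and at *APX1*, a peroxidase that removes hydrogen peroxide, model 3 had 53.0, 51.1 and 51.0%. Those 2 splits were nearly the same in each library, while other loci of this class varied more. Model 2 of AT2G47640 had 45.7, 53.4 and 44.0% and model 4 of *smB*, a core splicing protein, 47.9, 48.8 and 39.6%.

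The lead differed between libraries at the following loci. Elongation factor AT5G60390 had model 1 at 51.9, 53.6 and 49.3% and model 3 at 48.0, 46.4 and 50.6%. *UBC10*, a ubiquitin-conjugating enzyme, had model 1 at 49.0, 59.3 and 53.2% and model 4 at 49.7, 39.4 and 44.8%, so that they were close in replicate 1 only. *AGP31*, an arabinogalactan protein, had model 1 at 56.9, 52.7 and 47.3%, so that model 2 led in replicate 3. Of the 473 loci with differing leads 133 had no model over 60% in any library. With at least 200 estimated counts in each library 211 of 3050 loci (6.92%) differed in their lead.

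Of the transcription factor loci 198 had several models and enough counts, and 172 of them kept one lead, at 84 with at least 80% in every library and at 59 under a model other than 1. Over all 4430 loci with several models and enough counts, these shares were 89.3, 57.0 and 22.9%. The share with at least 80% was thus lower among the transcription factor loci. Patterning genes with several models and enough counts are 13. *BDL* was read from model 2 at 99.1, 98.2 and 95.0%, *ATML1* from model 2 at 94.1, 92.7 and 92.0% and *WRI1* from model 3 at 95.8, 92.1 and 92.7%. *PLT3* was led by model 3 with 78.3, 80.2 and 84.6%, and *AS2*, a partner of *AS1*, by model 4 with 64.7, 58.4 and 68.4%. *HDG2* was the least even, with model 2 at 69.2, 79.0 and 87.2%. *L1L*, *KNAT6*, *CNA*, *ATS*, *YAB3*, *YAB5* and *MGP* were led by model 1, the last at 100% in every library.

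The spread between libraries was small for abundant genes. The median CV was 12.0% over loci from 1 nuclear TPM, 9.10% over the 4948 loci from 20 and 8.47% over those from 100. Counting alone, taken as 100 over the square root of the mean estimated count, would give medians of 5.66, 2.91 and 1.57%. Among loci from 20 nuclear TPM 89.6% had a CV under 20%, and 135 (2.73%) had a CV over 50%. Of these 135, 84 were highest in replicate 3, 49 in replicate 2 and 2 in replicate 1. Of all 4948 loci, 1031 were highest in replicate 3, 2139 in replicate 2 and 1778 in replicate 1. Nuclear loci that match an organelle genome, 131 of 137 of them on chromosome 2, were 57 of the 135, and all 66 of them from 20 nuclear TPM were highest in replicate 3. Without replicate 3 the number over 50% was 58.

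**Figure D5:**
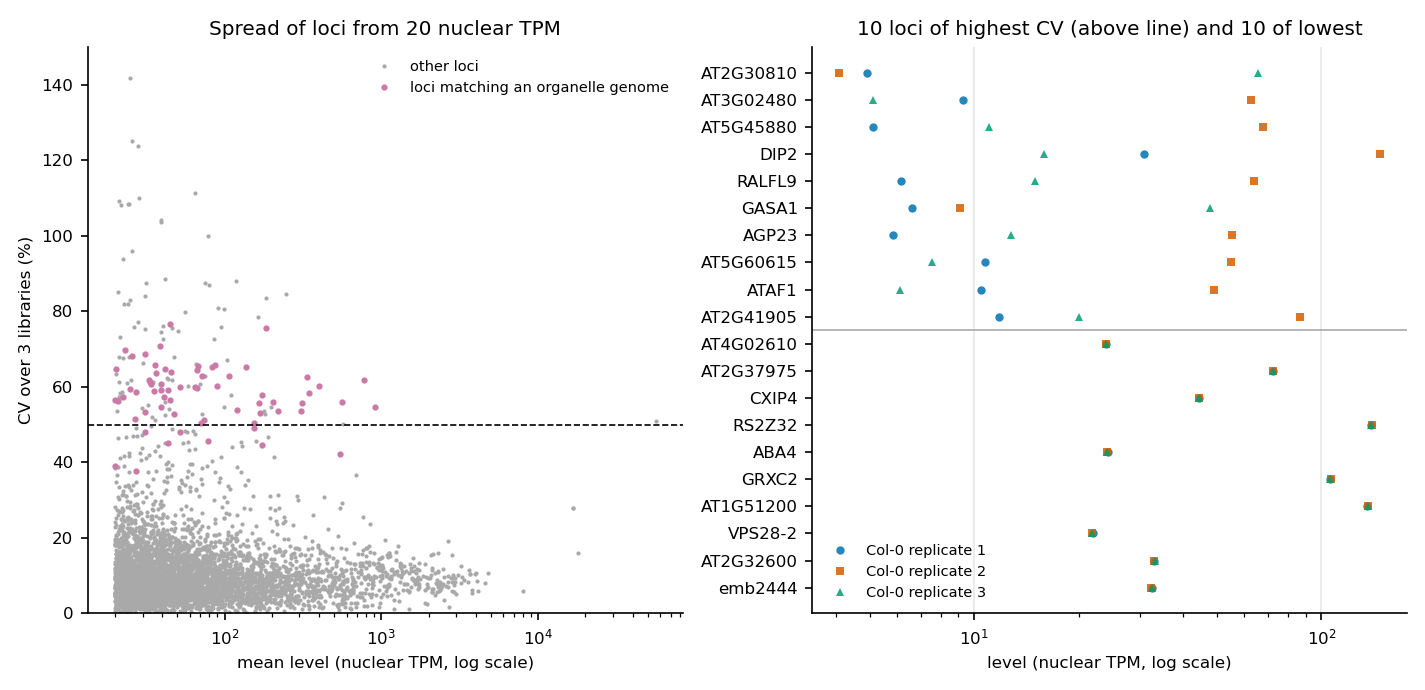
Left, CV over the 3 Col-0 libraries against mean nuclear TPM (log axis) for the 4948 loci from 20 nuclear TPM, with loci that match an organelle genome in pink and a dashed line at 50%. Right, nuclear TPM per library (log axis) of the 10 loci of highest and the 10 of lowest CV; 8 of the 10 highest have their top value in replicate 2.

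The 10 loci of highest CV were not organelle matches, and 8 of them were highest in replicate 2. *DIP2*, annotated as a ubiquitin ligase, had 30.8, 147 and 15.8, the NAC gene *ATAF1*, which responds to drought and wounding, 10.4, 49.0 and 6.11 and the LEA gene AT3G02480 9.26, 62.9 and 5.09. Also highest in replicate 2 were AT5G45880 (5.09, 67.8 and 11.0), the arabinogalactan gene *AGP23* (5.83, 55.1 and 12.8), the peptide gene *RALFL9* (6.14, 64.0 and 14.9), the defensin-like AT5G60615 (10.7, 54.8 and 7.56) and AT2G41905 (11.8, 86.9 and 20.0). *AGP23* is known from pollen, and the sperm cell histone *MGH3* had counts in replicate 2 alone. Genes with other annotations, such as *ATAF1*, also peaked in replicate 2, but the 8 loci differed in their lowest library. *AGP23*, *RALFL9*, AT5G45880 and AT2G41905 were lowest in replicate 1, while *ATAF1*, *DIP2*, AT3G02480 and AT5G60615 were lowest in replicate 3. Whether pollen or any other source raised these 8 loci in replicate 2 was not tested. The other 2 were highest in replicate 3, the gibberellin-regulated AT2G30810 (4.90, 4.09 and 65.5) and *GASA1* (6.63, 9.10 and 47.9).

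At the other end, AT4G02610, an aldolase-type protein, had 24.0 in each library (CV 0.0189%). AT2G37975 of the secretory pathway had 72.5, 72.4 and 72.5, *CXIP4* 44.4 in each library and the splicing factor *RS2Z32* 139, 140 and 139. *ABA4*, *GRXC2*, AT1G51200, *VPS28-2*, AT2G32600 and *emb2444* had CVs of 0.303 to 0.459%. All of these lie under the CV that counting alone gives for them (1.65 to 4.95%), so that among 4948 loci these were the smallest of 3-value spreads and not a measure of constancy. Common reference genes held 0.148 ± 0.00205% of nuclear TPM as a list, with a median CV of 9.85%.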

How the data were processed

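The report rests on the 3 Col-0 wild-type libraries of early heart embryos; the other 6 libraries of the series were not used here. The authors quantified the reads with kallisto against an *Arabidopsis* transcript index, and the submitters' processing notes name TAIR10; the kallisto version and settings are not given in the sources used here. Each deposited file holds, per transcript entry, its length, its effective length, the estimated counts and the TPM, a level per transcript length that sums to 1000000 per library. TPM were summed per locus, plastid and mitochondrial loci and AT2G01021 were left out, and the rest was rescaled to 1000000. Kallisto divides reads that fit several entries between them, so levels of near-identical copies and of isoforms are estimates, and TPM of very short entries rests on small effective lengths.

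Names, positions and sequences came from the RefSeq annotation of TAIR10.1, which matched 32834 of the 33323 nuclear loci. Nuclear loci with at least 95% identity over at least 90% of their length to an organelle genome were found with BLAST+ 2.17.0. Tables were made with Python 3.11.15, pandas 2.3.3 and NumPy 2.4.6, and scaling factors with edgeR 4.0.16 and DESeq2 1.42.0 in R 4.3.3. With 1 group there was no comparison and no test; levels are given per library with the mean, SD and CV. Named loci were the 30 of highest mean level, every gene of the functional lists or its leading members, the 20 leading transcription factors, the isoform loci of highest level in each class, and the 10 loci of highest and of lowest CV among those from 20 nuclear TPM. The members and lists were chosen with earlier results of these data known, and exclusions from the transcription factor, histone and ribosomal protein lists were set after values were seen. Alternatives were other scalings, other minimum counts and levels, and leaving out each library.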

Additional observations from a re-analysis of the deposited data

How the results depend on the processing

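By counts scaled to depth in place of TPM, 16 of the 30 leading loci remained among the first 30, the 100 and 1000 most abundant loci held 29.1 and 62.2%, ribosomal proteins 23.3%, histones 2.3% and transcription factors 1.72%. Without rRNA, tRNA, snRNA and snoRNA loci the 10, 100 and 1000 most abundant held 6.58, 29.4 and 70.3%, ribosomal proteins 37.3%, histones 3.85%, photosynthesis genes 1.53% and transcription factors 1.40%. Lists taken from annotation notes, an alternative chosen after seeing the data, gave 26.7% for ribosomal proteins and 1.06% for transcription factors, with 463 of the latter from 1 and 189 from 10 nuclear TPM. The ribosomal protein list among them also held the loci listed by hand. With a minimum of 200 estimated counts 3050 loci remained in place of 4430, of which 655 (21.5% against 22.9%) were led by a model other than 1 and 211 (6.92% against 10.7%) differed in their lead, and with no minimum 867 of 5311 (16.3%) differed. Over all loci above 0 the median CV was 22.4%, and without organelle-matching loci, also chosen after seeing the data, 78 loci had a CV over 50%. Leaving out each library in turn gave 293 to 346 loci with a differing lead, among 4439 to 4515 loci. With a library left out a lead has fewer chances to differ, so counts under the 473 of all libraries say little. The same runs gave 58 to 149 loci with a CV over 50%, 58 without replicate 3. No paired analysis was possible because only 1 group was used. Levels under about 3 counts per library were not measurable, and short entries, near-identical copies and antisense partners limit single locus values.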

Other observations

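Some loci without a protein product were also abundant. The non-coding RNA AT1G79075 stood at 969, 693 and 778 nuclear TPM and the snoRNA AT2G35382 at 985, 509 and 588. The precursor of miR156a, AT2G25095, had 89.4, 86.3 and 149, and AT5G57735, which gives rise to the small RNAs that target auxin response factor genes, had 73.3, 74.8 and 111. Both were highest in replicate 3. These values are of longer precursor transcripts and not of mature small RNAs, which this library type does not capture.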
